A study of Homo sapiens with 7 samples.

Results

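The proteasome subunit genes were taken as the rows of the HepG2 expression table that lie on chromosomes 1 to 22, X or Y and carry a symbol made of PSMA, PSMB, PSMC, PSMD, PSME or PSMG followed only by digits. This rule found 47 genes among 22113 rows with a gene symbol, spread over 17 chromosomes, with 8 genes on chromosome 14 and 7 on chromosome 17. The rule used names and no measured value. PSMC3IP, a recombination cofactor named after its binding partner, carries letters after the digits and was left out.

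All data came from HepG2, an established human liver cancer cell line grown without any treatment named in the labels. The 7 samples were 1 native MNase-Seq map of nucleosome positions, 1 RNA-Seq sample and 1 ChIP-Seq sample for each of H3K27ac, H3K9ac, H3K4me3, H3K9me3 and H3K27me3. The RNA-Seq table holds 2 columns of FPKM (fragments per kilobase of transcript, scaled to the number of mapped fragments), and the sources used here do not say whether they are separate cultures or the same RNA sequenced again. There is no second cell line or condition, so every value below is a description of this line, without a test.

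The proteasome is the large protease that degrades ubiquitin-tagged proteins in the cytosol and nucleus. Its barrel-shaped 20S core particle is made of alpha rings, which gate the entrance, and beta rings, which hold the protease sites, and the 19S regulatory particle recognises, unfolds and feeds in the substrate. Immune cells and cells exposed to interferon gamma replace the catalytic beta subunits PSMB6, PSMB7 and PSMB5 with PSMB9, PSMB10 and PSMB8 to form the immunoproteasome, which is known for making peptides for class I antigen presentation.

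The promoters of PSMB5 and of the immunoproteasome genes PSMB8, PSMB9 and PSMB10 are shown because these genes carry the comparison of constitutive with interferon-inducible subunits, and that of PSME2 because it shares a motif with PSMB10. They are RefSeq sequence of build GRCh38.p14, written 5′ to 3′ on the strand of the gene and ending at the base before the RefSeq start. PSMB5 is at chr14:23035221-23035470 on the minus strand, PSMB8 at chr6:32844680-32844779 on the minus strand, PSMB9 at chr6:32853942-32854191 on the plus strand, PSMB10 at chr16:67936851-67936950 on the minus strand and PSME2 at chr14:24146611-24146710 on the minus strand. The sequences of PSMB5 and PSMB9 cover 250 bases, and the others cover the 100 bases next to the start. Capitals mark each match, on either strand, to TGACNNNGC or TGAGNNNGC (the antioxidant response element letters bound by the NRF1 and NRF2 factors), to the CCAAT box, to the GC box GGGCGG or to the core of an interferon-stimulated response element, which is GAAA repeated after any 2 bases. The PSMB8 sequence holds no match.
PSMB5: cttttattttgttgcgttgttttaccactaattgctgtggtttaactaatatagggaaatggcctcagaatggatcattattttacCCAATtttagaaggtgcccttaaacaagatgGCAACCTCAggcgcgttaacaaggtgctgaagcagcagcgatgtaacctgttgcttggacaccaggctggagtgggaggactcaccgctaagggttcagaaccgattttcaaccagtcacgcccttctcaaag
PSMB8: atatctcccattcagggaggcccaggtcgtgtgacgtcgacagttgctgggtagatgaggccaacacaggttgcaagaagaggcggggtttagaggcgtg
PSMB9: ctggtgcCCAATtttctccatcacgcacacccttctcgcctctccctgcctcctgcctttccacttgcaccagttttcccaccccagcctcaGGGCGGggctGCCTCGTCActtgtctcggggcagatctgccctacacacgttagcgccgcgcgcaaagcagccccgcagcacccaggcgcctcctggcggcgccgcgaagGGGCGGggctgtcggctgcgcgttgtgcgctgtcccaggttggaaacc
PSMB10: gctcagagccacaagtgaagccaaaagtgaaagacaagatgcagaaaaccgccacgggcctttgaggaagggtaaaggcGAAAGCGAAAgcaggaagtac
PSME2: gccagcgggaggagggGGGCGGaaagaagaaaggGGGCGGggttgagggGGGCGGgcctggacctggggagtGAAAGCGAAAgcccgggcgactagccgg

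Promoters of 41 of the 47 genes were matched by symbol, and the first promoter listed for each gene was searched on both strands over the 250 bases before its start, as were all 27305 listed promoters. PSMA7, PSMB1, PSMB6, PSMB7, PSMD4 and PSMG3 were not matched. TGACNNNGC was found in 11 of 41 promoters (26.8%, against 11.0% of all promoters) and TGAGNNNGC in 10 (24.4%, against 14.8%). GGGCGG was found in 26 (63.4%, against 42.3%) and CCAAT in 18 (43.9%, against 33.0%). The proteasome promoters had a median GC content of 61.6%, against 58.0% for all. The core of the interferon-stimulated response element was found in 5 promoters (12.2%, against 3.07%), those of PSMB4, PSMA4, PSMG4, PSMB10 and PSME2. Its first base lay 21 bases before the start in PSMB10, 28 in PSME2, 33 in PSMG4, 68 in PSMB4 and 240 in PSMA4. The promoters of PSMB8, PSMB9 and PSME1, which interferon also induces, held no match to it. A match gives letters only and was not tested as a binding site.

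Of the 47 genes, 45 were expressed, which here means a mean FPKM of at least 1 over both columns, against 51.3% of all named rows. The same 45 also reached a mean FPKM of 10, against 28.5% of all named rows. The median over the 47 genes was 69.2 FPKM, above 94.9% of named rows, whose median was 1.24 FPKM. The expressed genes ranged from 10.3 FPKM for PSMB9 to 479 FPKM for PSMA6. Both columns were close: the larger value divided by the smaller had a median of 1.02 and reached at most 1.14, at PSMG4, with 15.5 and 17.6 FPKM. In bulk RNA, fewer cells with a transcript and less transcript in each cell cannot be told apart.

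PSMA8, the alpha subunit known from the testis, and PSMB11, the catalytic subunit of thymic epithelium, were listed at 0 in both columns. Neither had a marked nucleosome within 2 kb of its ends, although 41 and 31 positions were mapped there. They were the only genes of the 47 below an FPKM of 1.

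**Figure D1:**
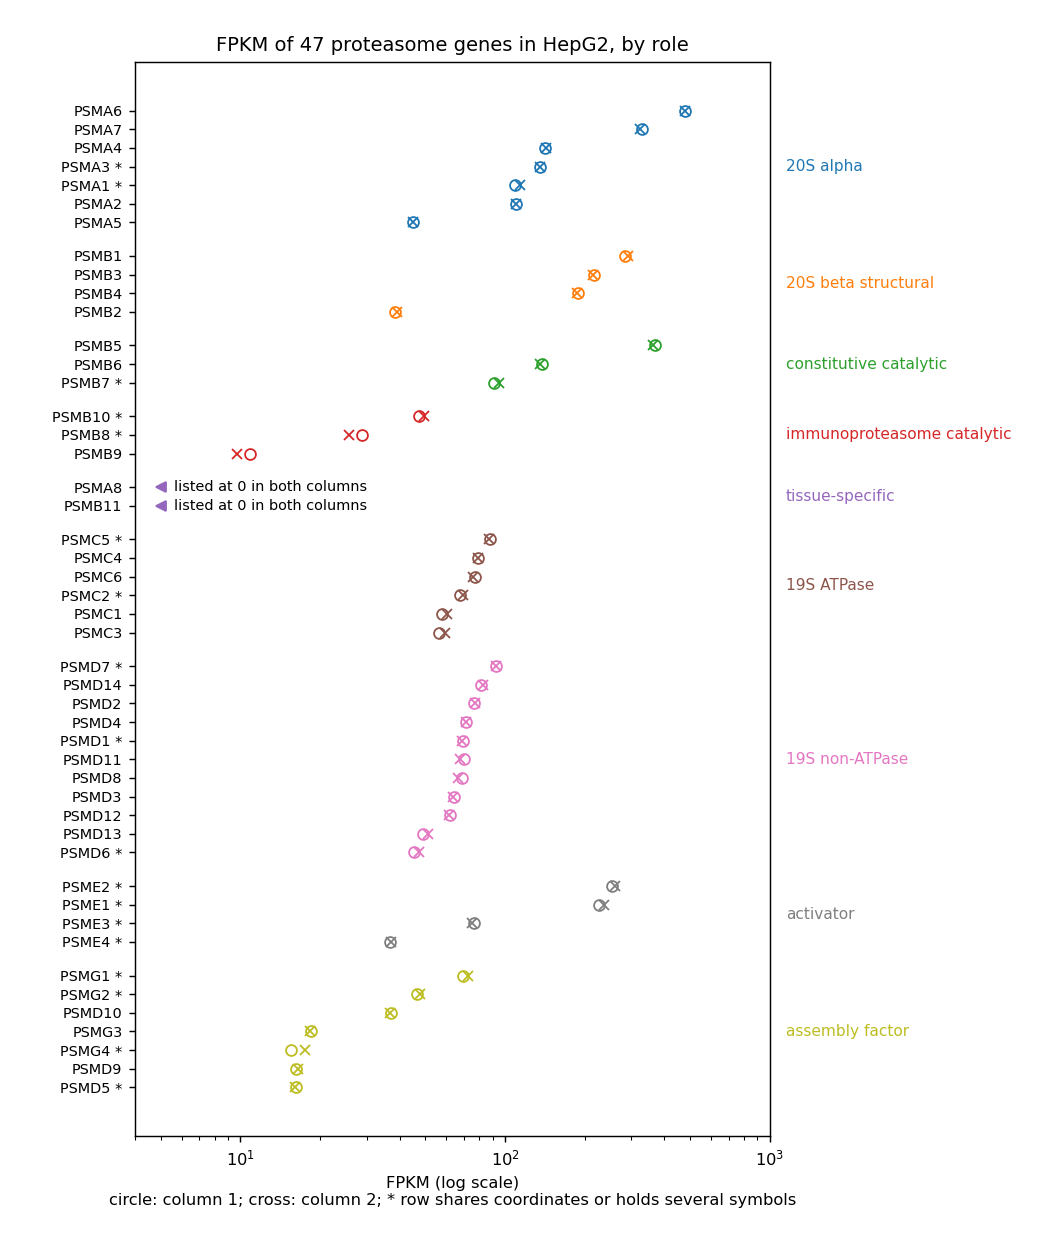
FPKM in both columns (circle and cross, log axis) for the 47 proteasome genes, grouped by role; the asterisk marks rows that share their coordinates with another row or hold several symbols. The 19S subunits with PSM symbols lie between 46.3 and 92.3, whereas the 20S alpha and beta subunits reach from 38.7 to 479, and the immunoproteasome genes lie at 10.3 to 48.4.

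FPKM is scaled by transcript length, which allows a rough comparison of levels between genes. The rows of PSMB10, PSME3 and PSMG1 hold several symbols, so their values need not be those of the proteasome gene alone. The 7 alpha subunits of the 20S core had a median of 136 FPKM and differed from each other by 10.7-fold. PSMA6 was the highest of all proteasome genes, with 478 and 481 FPKM. PSMA7 followed with 329 and 324 FPKM. At the low end, PSMA5 had 45.0 and 44.9 FPKM, and the remaining 4 genes of this group, PSMA1 to PSMA4, had between 109.8 and 142 FPKM.

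The structural beta subunits, which form the beta rings without cutting, were PSMB1 to PSMB4. PSMB1 was highest, with 284 and 291 FPKM, and PSMB2 was lowest, with 38.5 and 39.0 FPKM. PSMB3 and PSMB4 had 216 and 188 FPKM on average. The lowest gene of this group was 7.43-fold below the highest.

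The 17 subunits of the 19S particle with PSM symbols lay closer together. Its ring of ATPases, PSMC1 to PSMC6, which unfolds substrates, ranged 1.51-fold, from PSMC3 with 56.5 and 59.3 FPKM to PSMC5 with 87.9 and 87.1 FPKM. The 11 non-ATPase subunits ranged 2.0-fold, from PSMD6 with 45.2 and 47.4 FPKM to PSMD7 with 92.5 and 92.2 FPKM. They include the ubiquitin receptor PSMD4 with a mean of 71.2 FPKM and the deubiquitinase PSMD14 with 81.9 FPKM. Over these 17 subunits the median was 68.9 FPKM, and over the 14 constitutive subunits of the 20S core it was 139 FPKM. Of these 14, 12 lay above the highest of the 17, and only PSMA5 and PSMB2 lay below it. SHFM1, a small lid subunit of the 19S particle now called SEM1, has no PSM symbol and is not among the 17. It had 179 FPKM, with which the 19S range becomes 3.87-fold, and 6 of the 14 core subunits lay above it. ADRM1, a further 19S subunit without a PSM symbol, was not found, so its level is missing from this range. Among genes with coordinates of their own the spread was 12.4-fold over 11 core subunits and 1.63-fold over 12 of the 17 subunits of the 19S particle, or 3.57-fold with SHFM1.

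Among the activators, which can cap the core in place of the 19S particle, the interferon-inducible subunits of PA28 were high: PSME1 had 226 and 237 FPKM and PSME2 had 253 and 260.0 FPKM. PSME3, the nuclear PA28 subunit, is listed in a row together with AOC2 and AOC3, and that row had 76.1 and 75.2 FPKM. PSME4, also known as PA200, had 36.9 and 37.2 FPKM. Both PA28 genes lay above all 3 rows of immunoproteasome subunits, which interferon also induces.

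The assembly factors, which chaperone the building of the core and of the 19S base and are not part of the finished particle, had a median of 18.5 FPKM. PSMD5, with 16.3 and 16.0 FPKM, was the lowest, with PSMD9 at 16.4 FPKM and PSMG4 at 16.5 FPKM. The highest was the row of PSMG1, with 69.6 and 72.5 FPKM, which also carries the symbol BRWD1. PSMG2, its partner in building the alpha ring, had 47.1 FPKM, PSMD10 37.0 FPKM and PSMG3 18.5 FPKM.

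Each constitutive catalytic subunit was higher than the immunoproteasome subunit that takes its place. PSMB5, with the chymotrypsin-like site, had 369.9 and 364 FPKM, and its counterpart PSMB8 had 28.7 and 25.8 FPKM. The ratio was 13.5, with 12.9 in column 1 and 14.1 in column 2. PSMB6, with the caspase-like site, had 138 and 136 FPKM, and PSMB9 had 10.9 and 9.68 FPKM, the lowest of all 45 expressed genes. That ratio was 13.3, with 12.6 in column 1 and 14 in column 2. PSMB7, with the trypsin-like site, had 91.0 and 94.8 FPKM, and the row that holds PSMB10 had 47.5 and 49.4 FPKM, which gives a ratio of 1.92. The PSMB10 value cannot be taken as that of PSMB10 alone, since LCAT, a liver plasma enzyme, and SLC12A4 are in the same row.

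Histone marks were counted at single nucleosome positions of 140 bp. A position with exactly H3K4me3, H3K9ac and H3K27ac is called "T", a position with exactly H3K4me3 and H3K9ac "D" and a position with H3K4me3 only "A". H3K4me3 is a mark of active promoters, H3K9ac and H3K27ac accompany active promoters and enhancers, and H3K27me3 and H3K9me3 are marks of repressed chromatin. A position was counted where its midpoint lay within 2 kb of either end of the listed locus. Of the 47 rows, 29 (61.7%) had coordinates shared with no other row and a single symbol, against 61.8% of all named rows. The other 18 are bundles with other rows or symbols, and their listed ends need not be the ends of the proteasome gene. Of these, 16 share their coordinates with another row and 3 hold several symbols, 1 of which does both. At PSMD7 and PSME4 the other row has no gene symbol.

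At least 1 "T" was found at 39 of the 47 genes (83.0%), against 48.1% of all named rows and 82.1% of named rows with an FPKM of at least 10. At least 3 "T" were found at 28 genes (59.6%), against 32.8% of all named rows and 61% of those with an FPKM of at least 10. The median number was 3 "T" per gene, against 0 over all named rows and 3 at an FPKM of at least 10. These shares were close to those of named rows with an FPKM of at least 10 and above those of all named rows. H3K4me3 was present at 39 genes (83.0%), against 58.7% of all named rows and 86.5% at an FPKM of at least 10. H3K9ac was present at 39 genes (83.0%), against 56.2% and 86%, and H3K27ac at 40 (85.1%), against 51.4% and 85.1%.

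The windows of the 47 genes held 1850 nucleosome positions, with positions shared by several windows counted once. Of these, 316 (17.1%) had a mark and 169 (9.14%) were "T". In rows with an FPKM of at least 10, 16.2% had a mark and 8.48% were "T". "D" made up 2.22% of the positions, against 2.39% in those rows, and "A" made up 3.89%, against 2.92%. Of the marked positions of the proteasome genes, 53.5% were thus trivalent, against 52.4% in those rows.

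**Figure D2:**
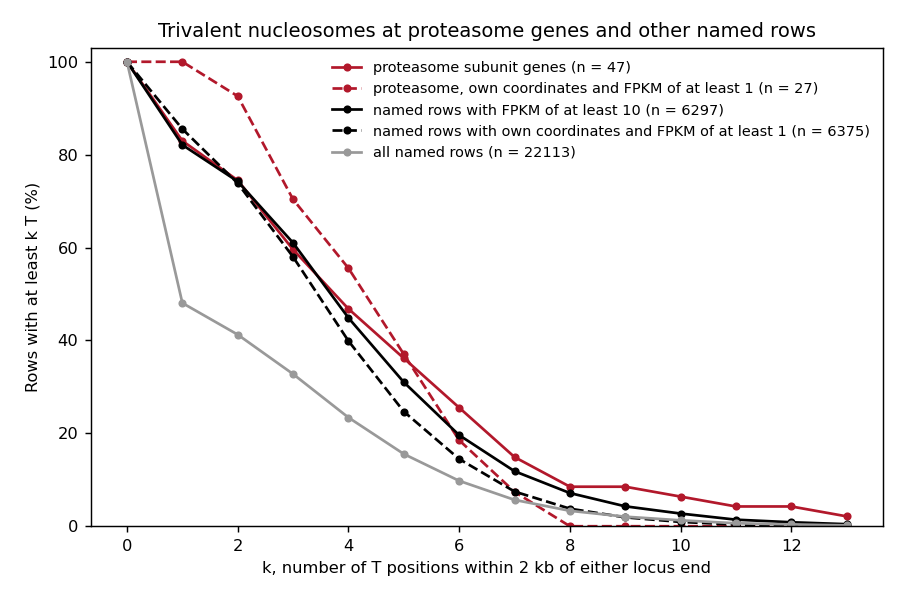
Share of rows (%) with at least k "T" positions within 2 kb of either locus end, for k from 0 to 13. The line of the 47 proteasome genes runs near that of named rows with an FPKM of at least 10 (83.0% against 82.1% at 1 "T"), and the 27 expressed proteasome genes with coordinates of their own all have at least 1.

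The repressive marks were rare at the proteasome genes, as at other genes of this level. H3K27me3 was found near 0 of 47 genes, against 9.82% of all named rows and 1.73% at an FPKM of at least 10. H3K9me3 was found near 1 gene (2.13%), against 3.9% and 2.67%. For either mark the shares were 12.9% and 4.3%. The single position carried H3K4me3 and H3K9me3 together and lay at chr9:127019867-127020006 (hg19), 0.052 kb inside the low end of the row of PSMB7, which shares its coordinates with NEK6. Over whole loci and the 2 kb beyond them, 9 of 47 genes (19.1%) held a position with a repressive mark, against 37.4% of all named rows and 30% of expressed named rows. The 2 genes listed at 0 differed there: PSMA8 had H3K9me3 at 1 position 32.2 kb from its low end, and PSMB11 had no marked position at all.

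The numbers of "T" differed widely between genes. PSMA3 had the most, with 13 within its windows, 5 at its low end and 8 at its high end, in a row shared with FLJ31306. PSMG4 had 12 in a row shared with SLC22A23, the PSMB10 row had 10 and PSMB7 had 9. These 4 genes are all in bundled rows, whose ends can hold starts of different genes. Among the genes with coordinates of their own, PSMA5 and PSMA6 had the most, with 7 "T" each.

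All 27 expressed genes with coordinates of their own had at least 1 "T" (85.5% of expressed named rows of the same kind) and 19 had at least 3 (70.4%, against 58%). The levels were not matched here. Those named rows, with an FPKM of at least 1, had a median of 12.1 FPKM, and the 29 proteasome genes with coordinates of their own had 68.9 FPKM. In each of the 27, "T" lay at the end inferred as the transcription start, against 84.7% of those rows. Of these genes, 24 were longer than 4 kb, so that their end windows do not overlap, and these held "T" at the far end only in PSMA2 and PSMA5. The 2 "T" at the far end of PSMA2 lay within 2 kb of the start of C7orf25, and the 4 at the far end of PSMA5 lay within 2 kb of the start of SORT1.

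**Figure D3:**
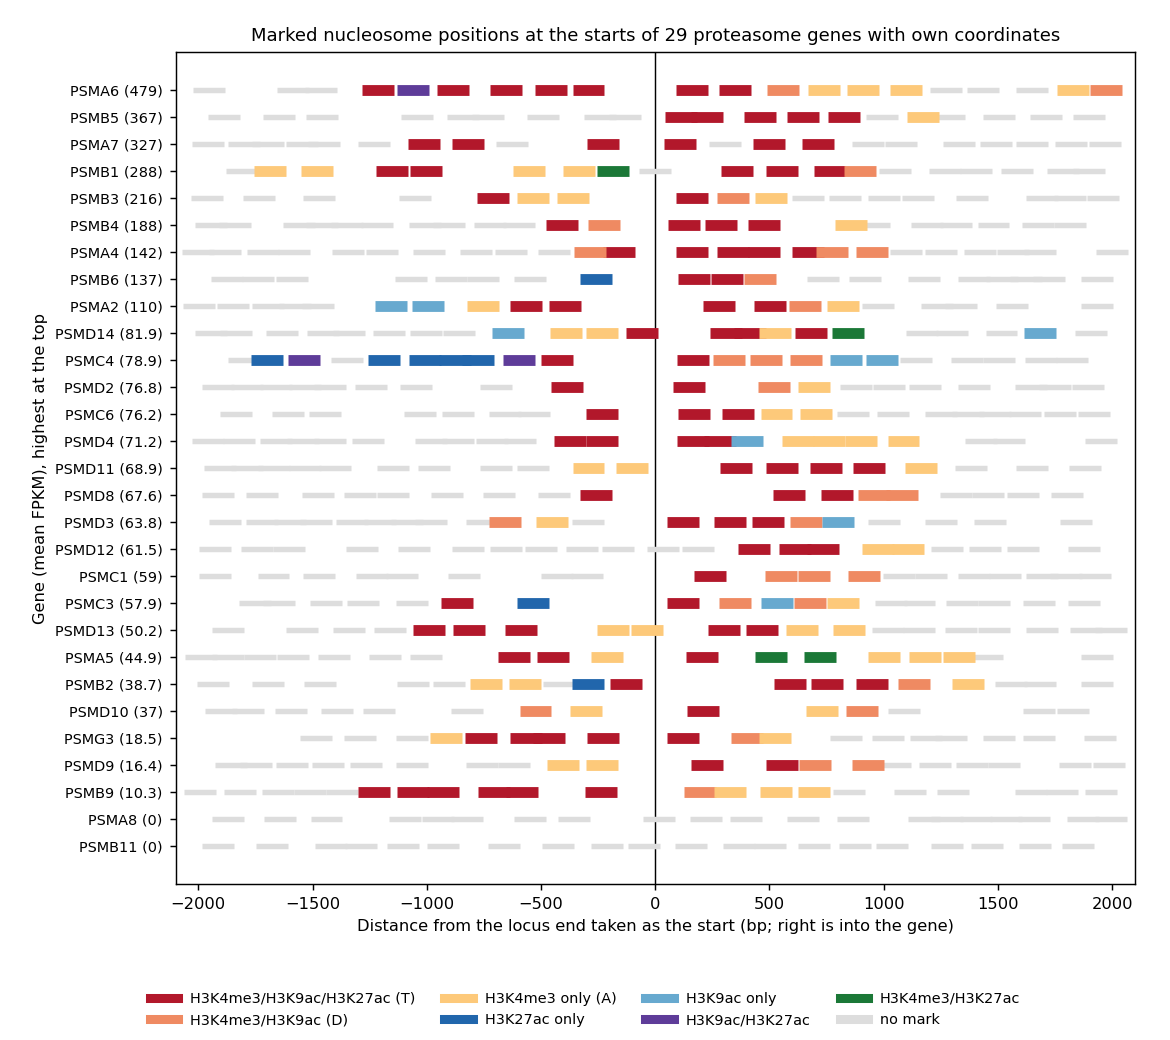
Nucleosome positions within 2 kb of the inferred start of the 29 proteasome genes with coordinates of their own (x axis, bp, gene body to the right), coloured by their combination of marks and ordered by FPKM. Downstream of the start, "T" (dark red) has a smaller median distance than "D" in 16 of 16 genes with both, and the rows of PSMA8 and PSMB11 carry no mark.

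From the start into the gene, "T" regularly came before "D" and "A". For each kind, the median distance downstream of the start was taken within each of the 27 genes that had it, and then over these genes. This median was 306 bp for "T", 662 bp for "D" and 822 bp for "A". In the 6375 expressed named rows of the same kind it was 490.0, 806 and 943 bp. By the median distance within each gene, "T" was nearer than "D" in 16 of 16 genes that had both downstream, and nearer than "A" in 17 of 17. Of the 6375 expressed rows of this kind, 2593 had "T" and "D" downstream and 2801 had "T" and "A". Within these rows "T" was nearer in 89.7% in each case. Single positions could depart from this order, as at PSMD14, where a "T" lay beyond an "A". The order of "D" and "A" was not fixed, since the median of "D" lay beyond that of "A" at PSMA6 and PSMD10. The order of "T" before "D" or "A" was thus found at most of the expressed genes that had both kinds downstream.

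The side of the start differed between genes. Over the 27 genes, 39 "T" lay upstream and 58 downstream of the start, so that 59.8% were downstream, against 76.4% in all expressed rows of this kind. PSMB5 had all of its 5 "T" downstream, the first at 112 bp, and PSMD11 had all 4 downstream. PSMA6 had 5 "T" upstream and 2 downstream, and PSMG3 had 4 upstream and 1 downstream. PSMB9 was the only gene of the 27 with no "T" downstream. Its 6 upstream "T" also lie in the window of the row that PSMB8 shares with TAP1. At least 3 "T" downstream were found in 10 of 27 genes (37.0%, against 41.6%). Upstream positions can also belong to a neighbour that starts on the opposite strand, and 8 of the 27 genes had such a start within 1 kb. Whether this accounts for the lower share downstream was not tested.

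Of the 27 expressed genes with coordinates of their own, 8 (29.6%) had a start within 1 kb of the start of another named row on the opposite strand, against 11.8% of expressed named rows of this kind. Among them, the gap was smallest for PSMA2 (27 bp from MRPL32), followed by PSMG3 (41 bp from KIAA1908), PSMD10 (51 bp from ATG4A), PSMA7 (97 bp from GTPBP5 and SS18L1), PSMD9 (129 bp from HPD), PSMB9 (170 bp from TAP1 and PSMB8), PSMD13 (444 bp from BET1L and SIRT3) and PSMB1 (821 bp from TBP). For PSMB9 the gap is to the row end that TAP1 and PSMB8 share, which is not the RefSeq start of PSMB8. The level of the neighbour could be far from that of the proteasome gene. PSMD9 had 16.4 FPKM beside HPD, a liver enzyme of tyrosine breakdown, with 128 FPKM. PSMG3 had 18.5 FPKM beside KIAA1908 with 0.452 FPKM.

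PSMB8 and PSMB9 lie beside TAP1, a subunit of the peptide transporter of class I antigen presentation, on chromosome 6. The row of PSMB8 (chr6:32808494-32821768, hg19) has the same coordinates as TAP1 and LOC100507463, and PSMB9 (chr6:32821938-32827628, hg19) starts 170 bp beyond its high end on the opposite strand. TAP1 had 18.1 and 17.1 FPKM, between PSMB9 and PSMB8. The windows of both rows share 20 positions and 6 "T", so the 6 "T" of PSMB8 and the 6 "T" of PSMB9 are the same nucleosomes. Their midpoints lay from 1231 to 236 bp before the listed start of PSMB9. On the PSMB9 side followed a "D" at 194 bp and "A" at 329, 529 and 694 bp.

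A separate stretch lay inside the PSMB8 row, 9586 to 10376 bp before the start of PSMB9, with 3 "T", 1 "D" and 2 "A". Neither stretch held a position with H3K27me3 or H3K9me3. The PSMB8 row had 6 "T" against 5 at PSMB5, PSMB9 had 6 against 2 at PSMB6 and the PSMB10 row had 10 against 9 at PSMB7. The FPKM was lower at the immunoproteasome gene of each pair. The first pairs rest on the same 6 nucleosomes, and both rows of the last pair are bundles. The 6 "T" of the PSMB8 row lay at its high end, beside PSMB9, and not at the RefSeq start of PSMB8. In GRCh38.p14 the promoter of PSMB8 (chr6:32844680-32844779) lies apart from that of PSMB9 (chr6:32853942-32854191). By distance from PSMB9, the start of PSMB8 is nearest the separate stretch, which held 3 "T". Of the 9 "T" of PSMB7, 6 lay at the end away from its inferred start, which had 3, and the inferred start of the PSMB10 row had 7.

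**Figure D4:**
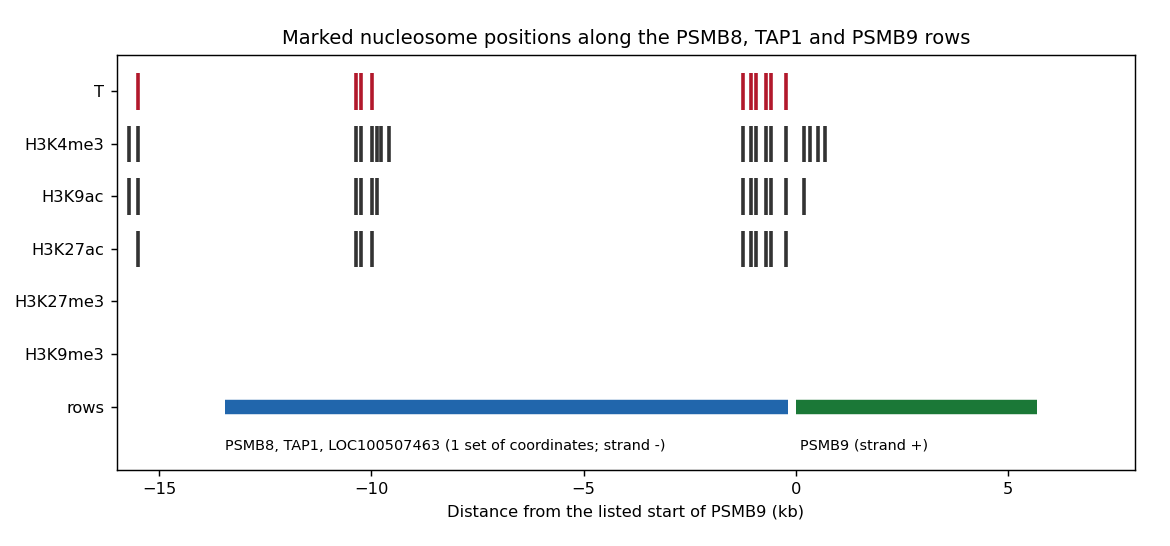
Marked nucleosome positions (vertical ticks) along the rows of PSMB8, TAP1 and PSMB9, by distance from the listed start of PSMB9 (kb). "T" falls in the 6 positions before the start of PSMB9, in 3 positions inside the PSMB8 row and in 1 beyond its low end, and the rows of H3K27me3 and H3K9me3 are empty.

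Across the 45 expressed genes the FPKM and the number of "T" were nearly unrelated (Spearman's rho 0.0766). Over the 27 with coordinates of their own, rho was 0.222, and over all 6375 expressed rows of this kind it was 0.303. These are correlations across genes of 1 cell line, which are not independent replicates, and bundled rows can carry the "T" of several genes.

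There were 6 expressed genes without a "T" in their windows: PSMA1, PSMC5, PSME3, PSME4, PSMD5 and PSMG1. None has coordinates of its own, and each held "T" farther inside its listed locus. PSMA1 shares coordinates with PDE3B over 369.5 kb and had 2 "T" starting 14.6 kb and 6 "T" starting 138 kb from its low end. PSMC5 shares coordinates with DDX42, CCDC47 and FTSJ3 and had 4 "T" at 27.4 kb and 4 at 81.3 kb. PSME4 had 5 "T" at 105.7 kb, which is 2.39 kb from its high end, just outside the window.

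PSMD5 had 6 "T" at 26.0 kb in a row that shares coordinates with LOC253039, and the PSMG1 row had 4 "T" at 7.23 kb and 3 at 137 kb. The PSME3 row had 8 "T" in a stretch from 1.79 kb on, in which the "T" lay beyond the window. When the whole locus was counted together with 2 kb beyond both ends, all 45 expressed genes had at least 1 "T", against 93.6% of expressed named rows, and 37 had at least 3, against 74%. Which of the bundled genes a stretch belongs to was not tested.

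PSME1 and PSME2 lie tail to tail on chromosome 14, and their windows share 14 positions and 1 "T". PSME1 had 3 "T" at its start. PSME2 shares coordinates with IRF9 and RNF31 and had no "T" within 2 kb of the end inferred as its start, but it had 5 "T" in a stretch 2.91 kb inside its low end.

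Of 23 symbols of proteasome-associated factors, 20 were found in the table, and all 20 were expressed, with a median of 28.9 FPKM. Those not found were ADRM1, SEM1 and ECM29. SEM1 and ECM29 are other names of SHFM1 and KIAA0368, which were found. They ranged from UBQLN2, a shuttle for ubiquitinated proteins, with 9.93 FPKM, to SHFM1 with 179 FPKM. The core maturation factor POMP had 85.4 and 88.5 FPKM, and the transcription factors NFE2L1 (NRF1) and NFE2L2 (NRF2) had 45.6 and 109.8 FPKM. At least 1 "T" was found at 17 of the 20, at least 3 at 13, and a repressive mark at 0, against 77.4%, 54.3% and 5.17% of expressed named rows. PSMF1, TXNL1 and PAAF1 had no "T".

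Of 16 genes of class I presentation and its interferon control, 15 were expressed, 15 had at least 1 "T" and 11 had at least 3. The shares of all named rows were 51.3%, 48.1% and 32.8%. Of expressed named rows, 77.4% had at least 1 "T" and 54.3% had at least 3. B2M, the light chain of class I molecules, had 481 FPKM, and CALR, a chaperone of the loading complex, had 445 FPKM. The inducible factors were lower, with IRF1 at 3.48 and 3.57 FPKM and NLRC5, a class I transactivator, at 1.58 and 1.71 FPKM. NLRC5 was the gene with no "T", and CIITA, the class II transactivator, was the gene not expressed, at 0.0209 and 0.0455 FPKM with 4 "T" in a row with shared coordinates. The row of TAP2 and HLA-DOB, whose window overlaps that of PSMB8, had 16.5 and 16.1 FPKM and 2 "T".

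As a setting for these levels, 82 rows of cytosolic ribosomal proteins had a median of 961 FPKM and 4 "T", and 79 rows of mitochondrial ribosomal proteins had 42.6 FPKM and 3 "T". At least 3 "T" were found in 70.7% and 62.0% of them, beside 59.6% of the proteasome genes. The label HepG2 was checked against hepatocyte markers, of which ALB had 10011 FPKM and APOA2 5209 FPKM, and the 9 markers had a median of 1244 FPKM over 10 rows. PTPRC and CD3E, the defining markers of leukocytes, were listed at 0, fibroblast markers lay between 0.0278 and 1.16 FPKM and endothelial markers between 0.137 and 0.693 FPKM. CD68 appears only in a row of several genes that includes EIF4A1 and could not be read alone.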

How the data were processed

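Native MNase-Seq, ChIP-Seq of 5 histone marks and RNA-Seq were each measured in 1 sample of HepG2. The authors deposited the nucleosome positions (14217405, called with DANPOS) and the ChIP-Seq peaks (26271 to 95886 per mark, called at these positions with NUCLIZE) as coordinates in hg19, without scores or read numbers, so the reads behind a single position or peak are unknown. The authors deposited expression as FPKM in 2 columns, and the submitters' processing notes name BWA, TopHat2 2.1.0, Bowtie, HOMER 4.7 and edgeR. The table has the layout that Cuffdiff writes, which these sources do not name. Its fold changes, test statistics, p-values and q-values compare the columns with each other and were not used.

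The mean of both FPKM columns was used, and 5 rows with a failed or too deep status were left out. Each peak reached 3 bp beyond a position on either side and was assigned to the position it overlapped most, which was the position of its identifier for 319086 of 319086 peaks. The strand was inferred from the order of locus numbering and equalled that of RefSeq for 8541 of 8594 rows with coordinates of their own. Listed starts count from 0 and are written here counting from 1. The counting was tested on simulated data. The scripts used pandas 2.3.3, numpy 2.4.6, scipy 1.17.1 and matplotlib 3.10.9 under Python 3.11.15.

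With 1 sample per assay there was no test. The genes and lists were chosen with earlier results of these data known. Genes were described in full if they were catalytic, tissue-specific or activator subunits, the highest or lowest of a role, those with the most "T", expressed without "T", or with a repressive mark, and from the other lists if they shared a window or were not expressed. Others were named as examples after their values were seen. Alternatives were each column alone, other expression limits, windows and overlaps, rows that share coordinates with no other row and the start end alone, and the whole locus was added after the data had been seen. Promoters were RefSeq sequence (GRCh38.p14), and no position was carried between builds. A planned comparison of protein sequences was not run, and some of the items searched are not reported here.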

Additional observations from a re-analysis of the deposited data

How the results depend on the processing

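Of 60 alternative values over 11 results, 50 stayed close to the value reported and 10 moved. Counts within 1.5-fold of the reported value were taken as close. By this wide limit a median of 9 "T" for the immunoproteasome genes over the whole locus, against 6, was close. The 45 expressed genes became 29 when only rows that share coordinates with no other row were used, since fewer genes then enter. The median of 69.2 FPKM was 69.6 in column 1 alone, which was taken as moved although the difference is small. The median of 3 "T" became 5 with windows of 5 kb and 5 over the whole locus, an alternative added after the data had been seen. The single gene with H3K27me3 or H3K9me3 became 0 in rows that share coordinates with no other row, 0 at the start end alone, 2 with windows of 5 kb and 9 over the whole locus. The median of the constitutive catalytic genes fell from 5 to 3 "T" at the start end alone, and that of the immunoproteasome genes rose from 6 to 11 "T" with windows of 5 kb. These wider windows hold more positions by construction. No paired analysis was possible because each assay has 1 sample and no groups are compared. Peak heights and read numbers are not among the values used, so no stricter calling limit was tried.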
